A study of Mus musculus with 24 samples.

Results

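The 43 genes described here serve DNA replication and mitosis. They were taken as a fixed list of gene symbols, and all 43 were found among the 49315 genes counted in each of 24 RNA-seq libraries of mouse intrahepatic cholangiocytes, the epithelial cells that line the bile ducts within the liver. For the balance of replication against mitosis, the list sets 10 replication genes (the 6 Mcm genes, Gins2, Cdc6, Rrm1 and Rrm2) against 8 mitosis genes (Plk1, Aurka, Aurkb, Cenpa, Cenpe, Cenpf, Kif11 and Kif20a). No measured value entered the choice of symbols by rule, although the list was drawn up with earlier results of these data known.

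The 8 groups, each with 3 libraries, were male and female dnTGFB mice given secretin, untreated dnTGFB mice, wild-type (WT) mice given secretin, and untreated WT mice. dnTGFB mice carry a dominant-negative form of TGF-β receptor type II and are used to study primary biliary cholangitis, an autoimmune disease of the small bile ducts. The promoter of the transgene was not stated; in the dnTGFBRII mouse in common use for this disease it is the T cell promoter of Cd4, so that the transgene acts in T cells and not in the duct cells measured. Secretin, a gut hormone whose receptor in the liver is found on cholangiocytes, was given from 32 weeks of age by implanted minipump at a daily dose of 4 µg per kg body weight over 8 weeks, the pump being replaced at 1 month. Secretin-treated mice were used at 40 weeks and untreated WT mice at 32 weeks, so that the hormone and 8 weeks of age cannot be told apart, and the age of untreated dnTGFB mice is not given. Groups follow the library titles and the series' design text, since the genotype label conflicted with the title in 12 of the 24 libraries. Cholangiocytes of 6 to 8 mice per group were captured with an antibody on magnetic beads and pooled, and each pool's RNA was sequenced 3 times. By the labels each group is therefore 1 pool, and p-values here reflect only how its libraries spread, although libraries of several groups differed by far more than sampling noise, as given below.

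Cells license their replication origins in G1 by loading the MCM helicase, start replication when cyclin D and cyclin E kinases release E2F factors from the retinoblastoma protein, and later build the spindle and divide under the cyclin B kinase, Polo-like and Aurora kinases. Genes of the G1/S wave are largely driven by E2F, and genes of the G2/M wave by the MuvB complex with B-Myb and Foxm1, which binds CHR elements, and by NF-Y, which binds CCAAT boxes. Cholangiocytes of healthy adult liver divide rarely and proliferate after duct injury, and secretin is known in rodents as a hormone that sustains bile duct growth.

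Several libraries stood apart by content. Library totals ran from 1429218 counts in male dnTGFB library 3 to 104003184 counts in female WT secretin library 2, and the summed counts of the 43 genes from 447 to 40808 in male dnTGFB library 3 and female dnTGFB secretin library 3. Male dnTGFB library 3 had 5 of the 43 genes at 0 counts (Cdc6, Tyms, Ccnb2, Bub1 and Cenpe), which at its depth allows up to 2.10 CPM (the usual depth-scaled count) by counting error, taken as 3 counts. That library also held 15793 CPM over 10 heart muscle genes and 6757 CPM over 10 neuron genes, and male WT library 1 drew 42.75% of its counts from mitochondrial genes, against 9.73% and 9.75% in the other male WT libraries. Among females, dnTGFB libraries 1 and 2 and WT secretin libraries 2 and 3 held 53706, 52682, 51714 and 59850 CPM over the heart genes, and the Y-linked gene Ddx3y at 46.79, 58.29, 64.31 and 59.1 CPM. The X-linked RNA Xist, a female marker, stood at 39.97, 42.43 and 33.98 CPM in male WT secretin libraries. Female WT library 2 differed from female dnTGFB secretin library 1 by a chi-square of 1.17 per gene (1 is sampling noise), closer than to any library of its own group, and both held squamous epithelium genes at 3532 and 3506 CPM. Male WT library 1 was nearest to male dnTGFB library 2 (7.23, against 39.96 to its own group), which bears on male dnTGFB over WT. Female dnTGFB library 3 was nearest to female WT library 1 (4.85, against 47.58 to its own group). Within their groups, male dnTGFB library 3 and female WT secretin library 1 lay 78.54 and 62.44 from the nearest library. Of the 10 cholangiocyte markers, none was at 0 counts except 1 in male dnTGFB library 3, but their sum ran from 93 CPM in female WT secretin library 2 to 5758 CPM in male dnTGFB secretin library 1. In these bulk samples, fewer dividing cells and less RNA per cell cannot be told apart.

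Levels between genes are compared in TPM (a depth-scaled count that is also divided by gene length). By the median over the 24 libraries, the sliding clamp gene Pcna stood first at 90.2 TPM and the G1 cyclin gene Ccnd1 second at 70.2 TPM. The helicase genes Mcm3 at 26.0 TPM, Mcm6 at 18.1 TPM and Mcm4 at 14.6 TPM came next. Cenpa, which encodes the centromeric histone H3 variant, had the highest median of the mitosis genes at 9.86 TPM. The checkpoint kinase gene Bub1 was lowest of the 43 at 0.555 TPM. The list was thus led by replication and G1 genes, and most mitosis genes were counted at a few CPM, where 1 library of low depth gives little precision.

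Promoters are shown because replication and mitosis genes differ in the letters near their start sites. RefSeq promoter sequences (build GRCm38.p6, 250 bases before to 50 bases after the start) matched 34 of the 43 genes. E2F sites were searched in 4 spellings: the first was TTCGCGC; the next was TTGGCGC; another was TTCCCGC; and the last was TTGGCGG. The CHR element was searched as TTTGAA and the CCAAT box by its name, all on both strands. By role, 17 of the 43 genes are replication genes and 18 are mitosis genes, of which 15 and 15 had a promoter. An E2F match was found in 10 of 15 replication promoters and 2 of 15 mitosis promoters, against 10.2% of all 32851 promoters. A CHR match was found in 2 of 15 replication promoters (Mcm2 and Cdc45) and 10 of 15 mitosis promoters, against 17.9% of all promoters. CCAAT was found in 11 of 15 and 13 of 15, against 37.4% of all promoters. Below are Mcm6, the gene of the 43 with the lowest adjusted p for male dnTGFB over WT, with 5 E2F matches and no CHR match, on chr1:128359656-128359955 (minus strand), Plk1, with 1 CHR and 1 CCAAT match, on chr7:122159185-122159484 (plus strand), Cenpa, with 1 CHR and 2 CCAAT matches, on chr5:30666636-30666935 (plus strand), and Mki67, with 1 E2F, 2 CHR and 3 CCAAT matches, on chr7:135716330-135716629 (minus strand). Capitals mark the matches, and in Mcm6 overlapping E2F matches on opposite strands give the runs of 10 capitals. Mcm6 also has 2 CCAAT matches, which lie on the opposite strand and so read ATTGG.
Mcm6: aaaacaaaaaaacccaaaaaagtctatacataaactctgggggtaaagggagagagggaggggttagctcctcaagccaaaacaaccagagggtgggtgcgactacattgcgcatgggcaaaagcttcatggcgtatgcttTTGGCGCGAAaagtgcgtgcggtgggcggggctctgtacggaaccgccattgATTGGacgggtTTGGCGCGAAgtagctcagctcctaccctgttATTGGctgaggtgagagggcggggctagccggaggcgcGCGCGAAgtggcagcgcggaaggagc
Plk1: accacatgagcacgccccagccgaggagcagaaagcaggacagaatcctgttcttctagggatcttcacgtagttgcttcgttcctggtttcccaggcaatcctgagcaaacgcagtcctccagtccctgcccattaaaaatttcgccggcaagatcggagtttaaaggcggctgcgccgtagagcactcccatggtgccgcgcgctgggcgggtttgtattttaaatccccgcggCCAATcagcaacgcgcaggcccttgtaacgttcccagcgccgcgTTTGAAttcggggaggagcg
Cenpa: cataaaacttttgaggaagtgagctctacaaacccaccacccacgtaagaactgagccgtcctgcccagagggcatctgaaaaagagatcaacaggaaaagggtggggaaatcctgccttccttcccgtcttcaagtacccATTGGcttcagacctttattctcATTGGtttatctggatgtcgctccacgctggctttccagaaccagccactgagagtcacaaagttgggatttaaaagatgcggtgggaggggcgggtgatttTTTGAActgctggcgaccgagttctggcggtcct
Mki67: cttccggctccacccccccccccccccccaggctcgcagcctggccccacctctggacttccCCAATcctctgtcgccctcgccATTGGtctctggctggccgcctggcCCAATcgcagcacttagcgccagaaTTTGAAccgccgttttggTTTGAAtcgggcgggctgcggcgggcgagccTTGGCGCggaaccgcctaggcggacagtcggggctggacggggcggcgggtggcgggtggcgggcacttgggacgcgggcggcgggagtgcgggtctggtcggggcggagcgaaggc
A match describes these letters only, and no binding was measured.

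**Figure D1:**
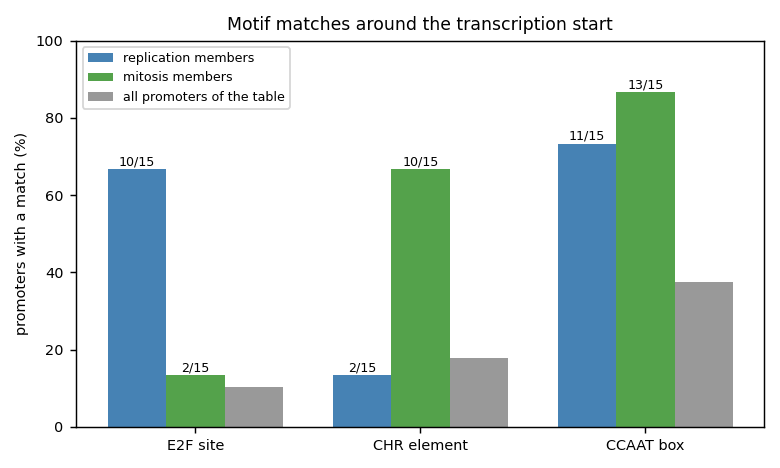
Share of promoters (vertical axis, percent) with at least 1 match to an E2F site, the CHR element or the CCAAT box, for 15 replication genes, 15 mitosis genes and all 32851 promoters of the table. E2F matches were found in 10 of 15 replication and 2 of 15 mitosis promoters, CHR matches in 2 of 15 and 10 of 15.

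The plot of motif shares sets both gene sets beside all promoters: the E2F and CHR bars are mirror images between the sets, and the CCAAT bars are high in both.

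The first comparison asked how untreated dnTGFB cholangiocytes differ from WT in males. Replication genes and several mitosis genes were lower in dnTGFB: 12 of 43 genes fell and 0 rose by edgeR's quasi-likelihood test (27.9% lower), against 8.46% of all 18777 genes tested that fell and 8.55% that rose. The median log2 fold change of the 43 genes was -0.69, against 0.01 over all genes tested. In 22 genes (51.2%) every dnTGFB library was below every WT library in TMM-scaled CPM (CPM of library totals corrected for composition), against 19.9% of all genes. All levels below are on that scale, and a gene is said to have fallen or risen only at an adjusted p under 0.05.

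Of the 6 genes of the MCM helicase, which unwinds DNA at the fork, 4 fell. Mcm6 had 17.1, 18.3 and 9.96 CPM in male dnTGFB libraries, against 38.7, 44.1 and 44.2 CPM in male WT libraries (log2 fold change -1.43 ± 0.19 (SE), adjusted p = 0.00335). Mcm4 had 17.6, 19.9 and 7.62 CPM in dnTGFB, against 29.7, 37.9 and 35.5 CPM in WT (log2 fold change -1.11 ± 0.24 (SE), adjusted p = 0.0122). Mcm2 had 17.6, 15.2 and 8.21 CPM in dnTGFB, against 20.7, 26.4 and 26.0 CPM in WT (log2 fold change -0.77 ± 0.22 (SE), adjusted p = 0.0355). In each of these genes dnTGFB library 3 was lowest and no dnTGFB library reached a WT library. Mcm7 fell by less, at 13.7 ± 4.03 CPM in dnTGFB and 24.5 ± 4.61 CPM in WT libraries (SD, n = 3 each, log2 fold change -0.80 ± 0.20 (SE), adjusted p = 0.0228), and 12.6% of its exonic bases are shared with other genes, so that without known strand use some of its reads may be theirs. Mcm3 and Mcm5 did not pass the test, at -0.86 ± 0.40 and -0.66 ± 0.22 on the log2 scale.

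Among 4 genes that act at replication origins, Cdt1, which loads the helicase, fell (4.61 ± 1.51 CPM in dnTGFB and 10.8 ± 0.446 CPM in WT libraries, log2 fold change -1.17 ± 0.27 (SE), adjusted p = 0.0141). Cdc6, its partner in loading, spread over 2.19, 6.29 and 0 CPM in dnTGFB, against 3.19, 3.45 and 3.34 CPM in WT (0.01 ± 0.55 on the log2 scale), and the groups overlapped. Among genes of the fork and of deoxynucleotide supply, both subunits of ribonucleotide reductase fell. Rrm2 had 4.61, 5.92 and 3.52 CPM in dnTGFB, against 6.80, 9.15 and 10.5 CPM in WT (log2 fold change -0.85 ± 0.24 (SE), adjusted p = 0.0355). Rrm1 averaged 21.3 ± 5.78 CPM in dnTGFB and 36.1 ± 2.37 CPM in WT libraries (log2 fold change -0.72 ± 0.17 (SE), adjusted p = 0.0174). Pcna, the sliding clamp, had 141, 138 and 62.1 CPM in dnTGFB, against 151, 165 and 174 CPM in WT (log2 fold change -0.51 ± 0.25 (SE), adjusted p = 0.178). Its dnTGFB libraries 1 and 2 were just under the lowest WT library and library 3 was far below. None of the 3 chromatin genes (Chaf1a and Chaf1b of the histone chaperone CAF-1, and the methylation maintenance factor Uhrf1) passed the test, at log2 fold changes from -0.93 to 0.20.

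Of 4 genes that control entry into S phase, 1 fell. Ccnd1 had 63.4, 66.5 and 33.4 CPM in dnTGFB, against 101, 144 and 141 CPM in WT (log2 fold change -1.22 ± 0.23 (SE), adjusted p = 0.00734), and 23.4% of its exonic bases are shared with an antisense gene. Ccne1, a cyclin of the G1/S switch, had 2.31, 3.05 and 8.21 CPM in dnTGFB, against 3.75, 2.60 and 3.26 CPM in WT (log2 fold change 0.30 ± 0.46 (SE), adjusted p = 0.667). E2f1, the transcription factor, had 6.57, 4.81 and 16.4 CPM in dnTGFB, against 7.22, 7.15 and 6.76 CPM in WT (log2 fold change 0.25 ± 0.36 (SE), adjusted p = 0.648). For both of these genes dnTGFB library 3 was the highest male library, and the groups overlapped.

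Of the 8 mitotic cyclins, kinases and their regulator Foxm1, 3 fell. Plk1, the Polo-like kinase, had 2.88, 1.48 and 1.17 CPM in dnTGFB, against 4.22, 5.11 and 6.12 CPM in WT (log2 fold change -1.38 ± 0.38 (SE), adjusted p = 0.0309). Aurkb, the kinase of the chromosomal passenger complex, averaged 1.10 ± 0.569 CPM in dnTGFB and 3.32 ± 0.959 CPM in WT libraries (log2 fold change -1.85 ± 0.42 (SE), adjusted p = 0.0145). Ccna2, the cyclin of S and G2, averaged 3.96 ± 0.889 CPM in dnTGFB and 8.13 ± 0.635 CPM in WT libraries (log2 fold change -0.97 ± 0.25 (SE), adjusted p = 0.0231). In these genes, too, the groups did not overlap. Antisense genes share 12.5% of the exonic bases of Ccna2 and 7.1% of those of Plk1. Cdk1, the mitotic kinase, had 3.92, 5.74 and 0.586 CPM in dnTGFB, against 7.03, 6.89 and 8.13 CPM in WT (log2 fold change -0.90 ± 0.40 (SE), adjusted p = 0.138). Ccnb1, its cyclin, had 2.19, 1.85 and 0.586 CPM in dnTGFB, against 1.03, 3.74 and 2.70 CPM in WT (log2 fold change -0.51 ± 0.53 (SE), adjusted p = 0.52). Foxm1 had 2.54, 6.02 and 1.76 CPM in dnTGFB, against 2.72, 4.00 and 4.63 CPM in WT (log2 fold change -0.01 ± 0.39 (SE), adjusted p = 0.984). Cdk1 was lower in every dnTGFB library without passing the test, while Ccnb1 and Foxm1 overlapped between the groups.

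Downstream in mitosis, 1 of 12 checkpoint, spindle and centromere genes fell: Cenpa averaged 23.2 ± 5.48 CPM in dnTGFB and 38.2 ± 6.13 CPM in WT libraries (log2 fold change -0.69 ± 0.18 (SE), adjusted p = 0.0255). Cdc20, which activates the anaphase-promoting complex, had 6.69, 2.87 and 0.586 CPM in dnTGFB, against 4.59, 5.74 and 6.08 CPM in WT (log2 fold change -0.51 ± 0.49 (SE), adjusted p = 0.482). Cenpf, a kinetochore protein, had 1.73, 1.94 and 4.10 CPM in dnTGFB, against 4.69, 2.34 and 2.50 CPM in WT (log2 fold change -0.47 ± 0.40 (SE), adjusted p = 0.422). Both genes overlapped between the groups. The proliferation markers did not pass the test. Mki67 had 21.6, 23.2 and 2.93 CPM in dnTGFB, against 28.5, 29.6 and 28.5 CPM in WT (log2 fold change -0.74 ± 0.40 (SE), adjusted p = 0.214). Top2a, the topoisomerase of chromosome condensation, had 18.7, 10.6 and 4.10 CPM in dnTGFB, against 16.2, 21.3 and 21.1 CPM in WT (log2 fold change -0.71 ± 0.35 (SE), adjusted p = 0.176). In both markers dnTGFB library 3 was far below its own group, and Mki67 did not overlap between the groups, while Top2a did.

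The 12 calls rest in part on single libraries. By edgeR, 3 genes were called without WT library 2, 2 without WT library 3 and 19 without dnTGFB library 3. For these and the later single omissions in males the share of all genes is not given, so the counts cannot be set against it. With the 6 libraries of these 2 groups fitted alone 0 genes were called, and 0% of all genes. Mcm6 and Ccnd1 passed the test without any 1 library, with log2 fold changes from -1.59 to -1.26 for Mcm6 and from -1.40 to -0.99 for Ccnd1. Without male WT library 1 and male dnTGFB library 3, 21 genes fell, the 12 among them, against 25.1% of all genes, and the median of the 43 was -0.55. Beside this result, the 10 cholangiocyte markers summed to 473, 477 and 680 CPM in dnTGFB, against 1305, 3349 and 3329 CPM in WT. The 10 B cell markers summed to 26, 21 and 13 CPM in dnTGFB, against 158, 467 and 466 CPM in WT, and mitochondrial genes took 55.07%, 55.03% and 11.44% of dnTGFB counts, against 42.75%, 9.73% and 9.75% of WT counts. The part of these differences in the result was not tested.

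**Figure D2:**
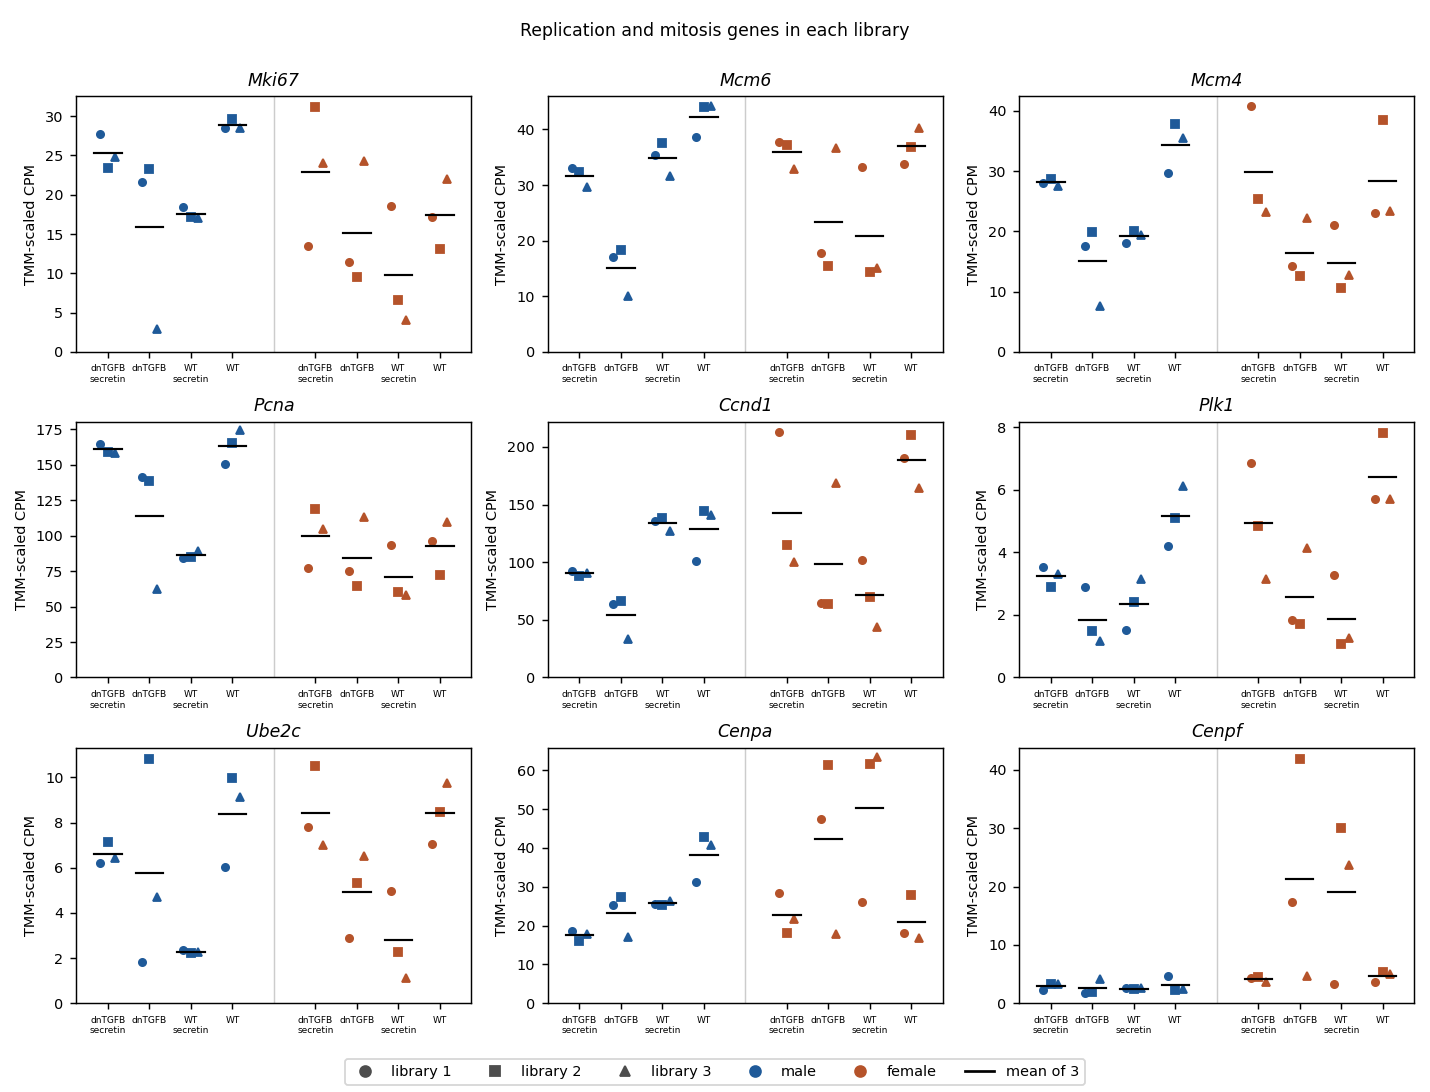
TMM-scaled CPM (vertical axes) of 9 of the 43 genes in each of the 24 libraries, by group (horizontal axes); symbols give the library number, colours the sex and bars the mean of 3. In males every Mcm6 and Ccnd1 value of dnTGFB lies below every WT value, and in females Cenpf is high in 4 libraries.

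In the plot of values by library, male dnTGFB library 3 is the lowest male point for Mcm6, Mcm4, Pcna, Ccnd1, Mki67 and Plk1. Over the 43 genes it was the lowest male library in 30.

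**Figure D3:**
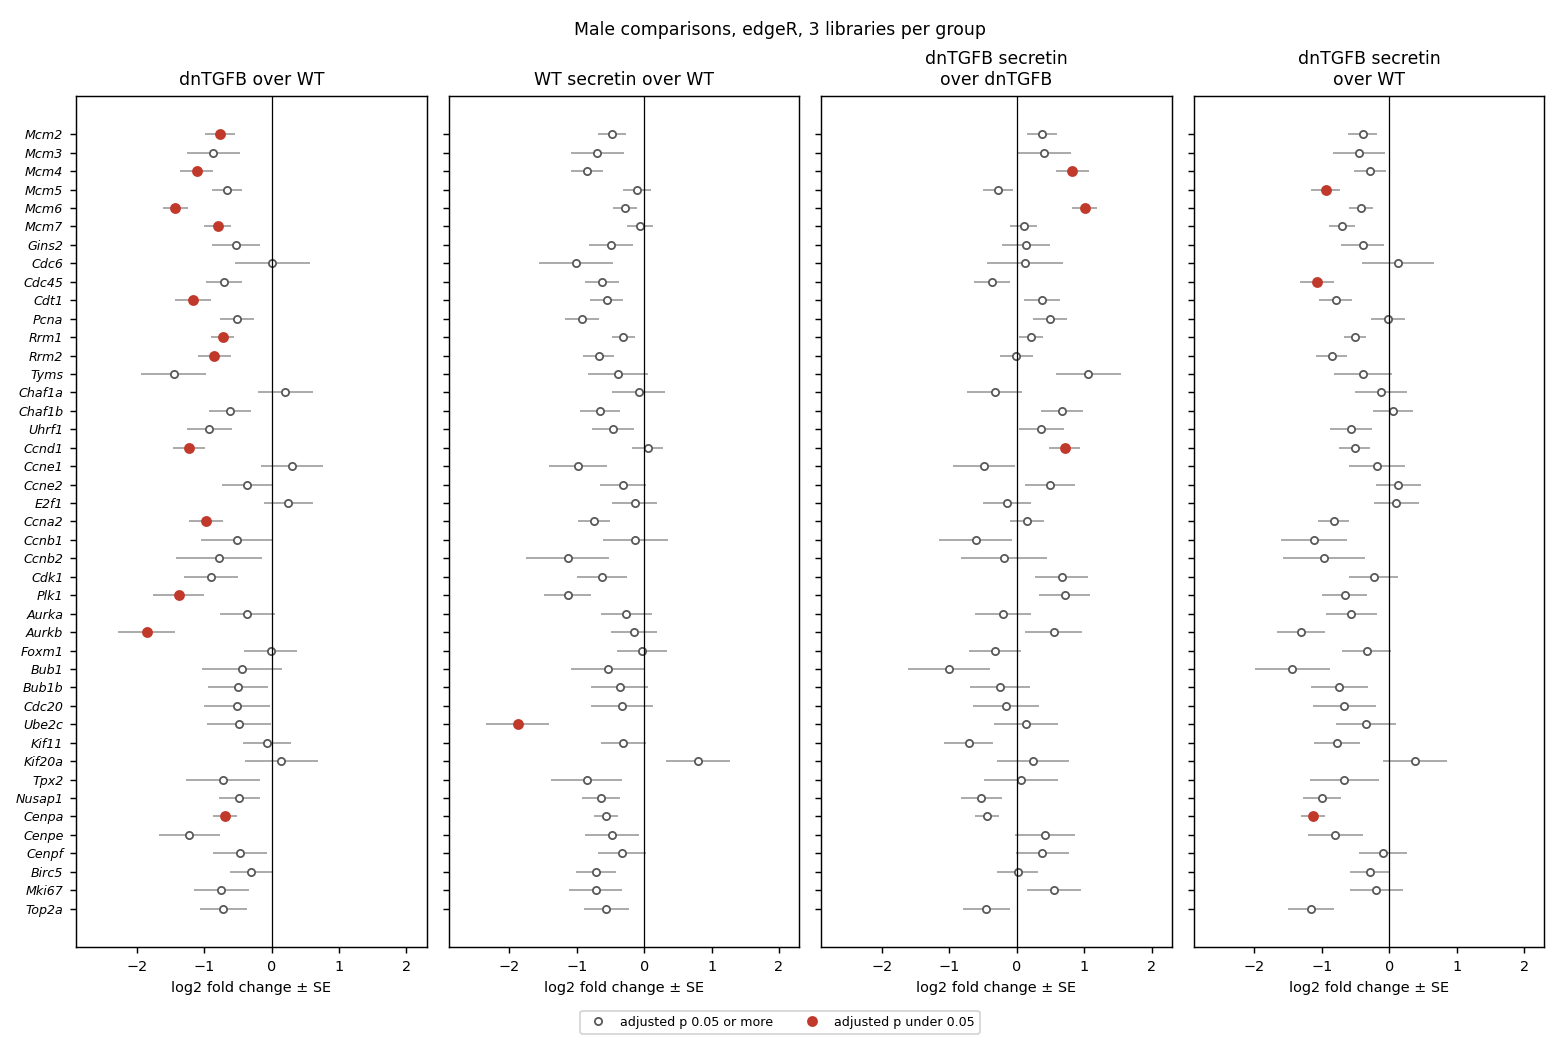
Log2 fold changes with their SE (horizontal axes) of the 43 genes (vertical axis) in 4 comparisons of male groups of 3 libraries each, by edgeR; filled points have an adjusted p under 0.05. The filled points number 12 in dnTGFB over WT, 1 in WT secretin over WT, 3 in dnTGFB secretin over dnTGFB and 3 in dnTGFB secretin over WT.

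The plot of male fold changes shows most of the 43 points left of 0 in every comparison with WT, where the same 3 WT libraries are the denominator, and points on both sides of 0 for secretin in dnTGFB.

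The second comparison asked what secretin does in WT males. Most of the 43 genes were lower in WT secretin libraries, but by edgeR only Ube2c fell and 0 rose (2.33%), against 2.67% of all genes tested that fell and 3.55% that rose, a share near the background. At an unadjusted p under 0.05 there were 14 of the 43 genes, against 3912 of all 18777. DESeq2 called 7 of the 43, but the share of all genes it called is not given, so this count cannot be set against it. The median log2 fold change by edgeR was -0.50, against 0.00 over all genes. In 26 genes (60.5%) every WT secretin library was below every WT library, against 21.5% of all genes. Ube2c, the ubiquitin-conjugating enzyme of the anaphase-promoting complex, had 2.38, 2.21 and 2.25 CPM in WT secretin libraries, against 6.05, 9.997 and 9.14 CPM in WT libraries (log2 fold change -1.88 ± 0.47 (SE), adjusted p = 0.0398). The groups did not overlap, but 22.8% of its exonic bases are shared with the antisense gene of troponin C. Its call was lost without WT library 2, WT library 3 or any 1 WT secretin library, at log2 fold changes from -2.07 to -1.73 and adjusted p values from 0.0448 to 0.153 over all single omissions.

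The next genes by adjusted p did not pass. Pcna had 84.3, 84.7 and 89.3 CPM in WT secretin, against 151, 165 and 174 CPM in WT (log2 fold change -0.92 ± 0.25 (SE), adjusted p = 0.055). Mcm4 had 18.0, 20.0 and 19.5 CPM in WT secretin, against 29.7, 37.9 and 35.5 CPM in WT (log2 fold change -0.84 ± 0.24 (SE), adjusted p = 0.0602). Plk1 had 1.51, 2.40 and 3.15 CPM in WT secretin, against 4.22, 5.11 and 6.12 CPM in WT (log2 fold change -1.14 ± 0.34 (SE), adjusted p = 0.0784). In all 3 genes the WT secretin libraries lay below the WT libraries with no overlap. Mki67 had 18.5, 17.2 and 17.0 CPM in WT secretin, against 28.5, 29.6 and 28.5 CPM in WT (log2 fold change -0.72 ± 0.39 (SE), adjusted p = 0.337). Top2a had 10.8, 13.7 and 15.2 CPM in WT secretin, against 16.2, 21.3 and 21.1 CPM in WT (log2 fold change -0.56 ± 0.34 (SE), adjusted p = 0.387). Cdk1 had 4.71, 3.87 and 5.71 CPM in WT secretin, against 7.03, 6.89 and 8.13 CPM in WT (log2 fold change -0.62 ± 0.37 (SE), adjusted p = 0.379). These 3 markers of cycling cells also did not overlap between the groups.

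Other helicase, nucleotide and cyclin genes did not pass either. Mcm2 had 16.9, 16.7 and 18.8 CPM, Mcm6 35.3, 37.6 and 31.7 CPM and Rrm2 6.06, 5.64 and 4.88 CPM in WT secretin libraries, with log2 fold changes over WT of -0.48 ± 0.21, -0.28 ± 0.18 and -0.67 ± 0.23. Ccne1 had 1.43, 1.08 and 2.36 CPM in WT secretin (log2 fold change -0.98 ± 0.43). These 4 genes were lower in every WT secretin library than in any WT library. Ccnd1 had 136, 138 and 127 CPM in WT secretin (log2 fold change 0.05 ± 0.23), within the spread of WT. E2f1 at 7.21, 5.98 and 5.98 CPM, Foxm1 at 3.29, 3.43 and 4.40 CPM and Cdc20 at 4.91, 3.77 and 4.35 CPM in WT secretin differed from WT by -0.14 ± 0.34, -0.03 ± 0.36 and -0.33 ± 0.46 on the log2 scale, with overlap. Ccnb1 at 2.58, 2.11 and 2.15 CPM and Cenpf at 2.58, 2.40 and 2.57 CPM in WT secretin lay inside the range of the WT libraries. Kif20a, a kinesin of cytokinesis, was the gene with the highest log2 fold change (0.80 ± 0.47), and 33.2% of its exonic bases are shared with an antisense gene.

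The WT libraries weigh on this comparison. Without male WT library 1 and male dnTGFB library 3, 22 genes fell, Ube2c among them, against 20.6% of all genes, and the median was -0.58. In that fit Pcna had -0.98 ± 0.05, Mcm4 -0.94 ± 0.09, Mki67 -0.73 ± 0.10 and Cenpa -0.70 ± 0.09 as log2 fold change ± SE. B cell markers summed to 150, 149 and 157 CPM in WT secretin, against 158, 467 and 466 CPM in WT, and hepatocyte markers to 14341, 14529 and 15030 CPM in WT secretin, against 9073, 3074 and 3044 CPM in WT. Their part in the result was not tested.

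In dnTGFB males given secretin, Mcm6, Mcm4 and Ccnd1 were the only genes of the 43 that rose. By edgeR 3 of 43 genes rose (6.98%) and 0 fell, against 10.1% of all genes that rose and 12.4% that fell, with a median log2 fold change of 0.14, against -0.05 over all genes. The share is below the background. In 10 genes (23.3%) every dnTGFB secretin library was above every dnTGFB library, against 22.9% of all genes. Mcm6 had 33.0, 32.3 and 29.7 CPM in dnTGFB secretin libraries, against 17.1, 18.3 and 9.96 CPM in dnTGFB libraries (log2 fold change 1.01 ± 0.18 (SE), adjusted p = 0.00586). Mcm4 had 28.1, 28.8 and 27.5 CPM in dnTGFB secretin, against 17.6, 19.9 and 7.62 CPM in dnTGFB (log2 fold change 0.82 ± 0.24 (SE), adjusted p = 0.0342). Ccnd1 had 92.2, 88.3 and 90.3 CPM in dnTGFB secretin, against 63.4, 66.5 and 33.4 CPM in dnTGFB (log2 fold change 0.71 ± 0.23 (SE), adjusted p = 0.0497). All 3 genes had no overlap, and the 3 dnTGFB secretin libraries lay close together.

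Mki67 had 27.7, 23.4 and 24.8 CPM in dnTGFB secretin, against 21.6, 23.2 and 2.93 CPM in dnTGFB (log2 fold change 0.55 ± 0.40 (SE), adjusted p = 0.335). Pcna had 165, 159 and 159 CPM in dnTGFB secretin, against 141, 138 and 62.1 CPM in dnTGFB (log2 fold change 0.49 ± 0.25 (SE), adjusted p = 0.176). Top2a had 8.65, 8.78 and 8.65 CPM in dnTGFB secretin, against 18.7, 10.6 and 4.10 CPM in dnTGFB (log2 fold change -0.45 ± 0.35 (SE), adjusted p = 0.364). Neither Mki67 nor Pcna overlapped, though for Mki67 the lowest dnTGFB secretin library was just above the highest dnTGFB library, and Top2a overlapped. Plk1 at 3.54, 2.89 and 3.31 CPM, Cdk1 at 6.46, 6.36 and 5.96 CPM and Cdc20 at 2.12, 3.65 and 4.58 CPM in dnTGFB secretin differed from dnTGFB by 0.71 ± 0.38, 0.67 ± 0.39 and -0.15 ± 0.49 on the log2 scale, with overlap for Cdc20 alone. For Plk1 the groups were separated only by 2.890 CPM in dnTGFB secretin against 2.883 CPM in dnTGFB. Mcm2 at 19.7, 18.7 and 17.0 CPM, Rrm2 at 4.87, 4.99 and 4.76 CPM and Ccne1 at 2.88, 2.46 and 3.12 CPM in dnTGFB secretin differed from dnTGFB by 0.37 ± 0.22, -0.004 ± 0.24 and -0.49 ± 0.46, with overlap. E2f1 at 7.49, 7.84 and 7.35 CPM, Foxm1 at 3.25, 2.78 and 2.97 CPM, Ccnb1 at 1.29, 1.52 and 0.631 CPM and Cenpf at 2.29, 3.32 and 3.31 CPM in dnTGFB secretin all overlapped dnTGFB. A positive log2 fold change was found for 8 of the 10 replication genes and 5 of the 8 mitosis genes, whether or not they passed the test.

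Without dnTGFB secretin library 1, 2 or 3, 1 gene was called each time, and without dnTGFB library 2 or 3 there were 5 and 7. Of the 3 genes Mcm6 alone kept its call through every single omission, at 0.85 to 1.17, and with the 6 libraries of these groups fitted alone 0 genes were called. Leaving out male WT library 1 and male dnTGFB library 3, 5 genes rose (Ccnd1, Mcm6, Mcm4, Pcna and Tyms) and 5 fell (Cenpa, Top2a, Kif11, Mcm5 and Bub1), against 23.1% and 23.5% of all genes. In that fit the helicase genes Mcm6 (0.84 ± 0.10) and Mcm5 (-0.44 ± 0.17) moved in opposite directions. The 10 cholangiocyte markers summed to 5758, 5673 and 5694 CPM in dnTGFB secretin, against 473, 477 and 680 CPM in dnTGFB. Macrophage markers summed to 1062, 1073 and 1037 CPM in dnTGFB secretin, against 149, 156 and 179 CPM in dnTGFB. Mitochondrial genes took 5.5%, 5.31% and 5.66% of dnTGFB secretin counts, against 55.07%, 55.03% and 11.44% of dnTGFB counts, and what these differences add to the result was not tested.

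Set against untreated WT, dnTGFB secretin males had 3 of 43 genes that fell (6.98%) and 0 that rose, against 2.46% and 1.88% of all genes. The median was -0.51, against -0.01 over all genes, and 30 genes (69.8%) had every dnTGFB secretin library below every WT library, against 22.9% of all genes. Cenpa had 18.7, 16.0 and 17.8 CPM in dnTGFB secretin, against 31.3, 42.8 and 40.7 CPM in WT (log2 fold change -1.13 ± 0.18 (SE), adjusted p = 0.00459). Mcm5 had 8.58, 8.20 and 8.80 CPM in dnTGFB secretin, against 16.2, 18.0 and 15.0 CPM in WT (log2 fold change -0.94 ± 0.21 (SE), adjusted p = 0.033). Cdc45, which joins the helicase at the fork, had 1.79, 1.45 and 2.02 CPM in dnTGFB secretin, against 3.33, 3.79 and 3.94 CPM in WT (log2 fold change -1.07 ± 0.25 (SE), adjusted p = 0.0368). All 3 were lower with no overlap, but 9.3% of the exonic bases of Cdc45 are shared with the antisense gene Ufd1. Rrm2 (-0.85 ± 0.23) and Aurkb (-1.31 ± 0.35) came next by p without passing, and Mki67 and Pcna differed from WT by -0.19 ± 0.39 and -0.02 ± 0.25 on the log2 scale. Cenpa kept its call without any 1 library; 1 gene was called without WT library 2 or 3 or any 1 dnTGFB secretin library, 25 fell without the libraries that stood apart (against 19.2% of all genes), and with library totals in place of TMM 0 were called. B cell markers summed to 33, 34 and 32 CPM in dnTGFB secretin, against 158, 467 and 466 CPM in WT, and cholangiocyte markers to 5758, 5673 and 5694 CPM in dnTGFB secretin, against 1305, 3349 and 3329 CPM in WT. Mitochondrial genes took 5.5%, 5.31% and 5.66% of dnTGFB secretin counts, against 42.75%, 9.73% and 9.75% of WT counts, and the part of these differences was not tested.

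The secretin effect was then compared between genotypes, as the log2 fold change in dnTGFB minus that in WT. It was higher in dnTGFB males for 4 genes (9.3%) and lower for 0, against 8.1% and 7.51% of all genes, and the median of the 43 was 0.70, against -0.07 over all genes. Mcm6 differed by 1.29 ± 0.26 (adjusted p = 0.00962), Mcm4 by 1.67 ± 0.34 (adjusted p = 0.0108), Pcna by 1.41 ± 0.36 (adjusted p = 0.0256) and Plk1 by 1.85 ± 0.51 (adjusted p = 0.0352), each log2 ± SE by edgeR. For Mcm4 the WT secretin libraries lay below all WT libraries and the dnTGFB secretin libraries above all dnTGFB libraries. These are values that the test itself used. The calls of Mcm6 and Mcm4 held under every alternative run, while those of Pcna and Plk1 were lost in part of them. By edgeR 2 genes were called without WT library 2, WT library 3, WT secretin library 1, WT secretin library 2 or any 1 dnTGFB secretin library. There were 8, 9 and 12 calls without dnTGFB library 1, 2 or 3, and the share of all genes in these fits is not given. Without male WT library 1 and male dnTGFB library 3, 16 genes were called higher, against 25.1% of all genes.

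**Figure D4:**
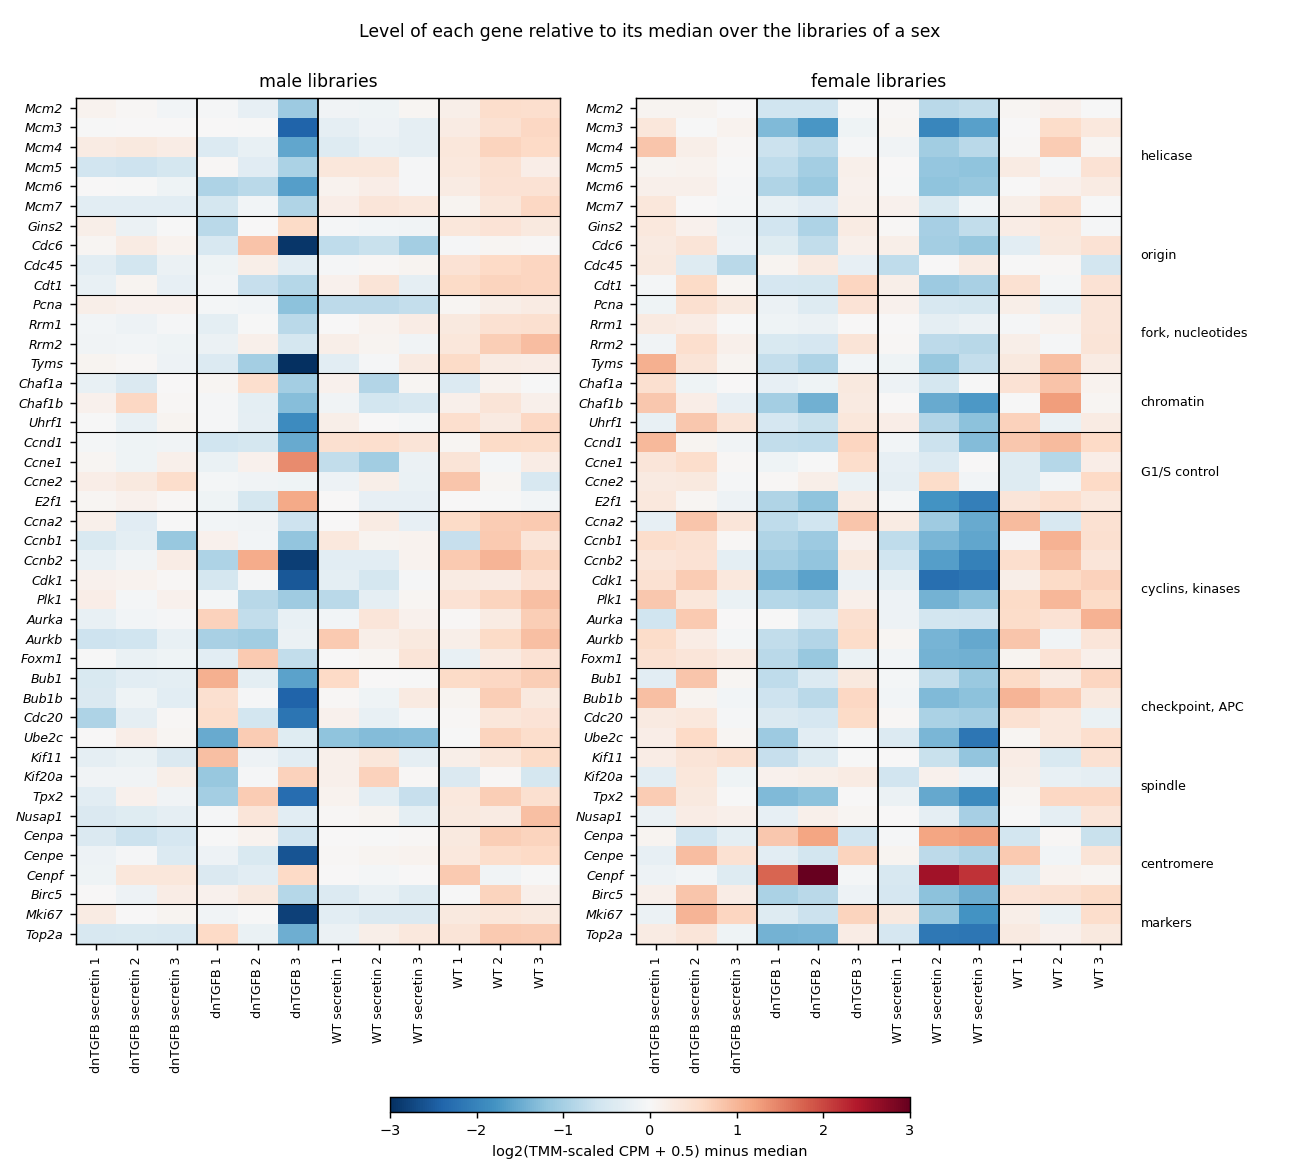
Each of the 43 genes (rows, by role) in the 12 male and 12 female libraries (columns), as log2(TMM-scaled CPM + 0.5) minus the gene's median over the libraries of that sex; blue is lower and red higher, with colours capped at 3 in either direction. Male dnTGFB library 3 is the lowest male library for 30 genes, and in females WT secretin libraries 2 and 3 are lowest for 13 and 23.

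The heatmap by role shows how unevenly the 43 genes moved: male dnTGFB library 3 is the male column with the most low genes, while the Ube2c row is blue in all 3 WT secretin libraries. In females the blue columns are the 4 libraries rich in heart transcripts, with Cenpf and Cenpa red in the same columns.

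The balance of replication against mitosis was measured as the summed CPM of the 10 replication genes over that of the 8 mitosis genes, a description with no test. In male libraries the ratio was 5.48, 5.68 and 5.25 in dnTGFB secretin, 3.48, 4.33 and 2.32 in dnTGFB, 4.17, 4.25 and 4.13 in WT secretin and 4.26, 4.03 and 4.03 in WT. With all 8 mitosis genes in the sum, the dnTGFB secretin libraries were above all other male libraries, and WT secretin and WT overlapped. On the log2 scale the group means were 2.45 ± 0.06 in dnTGFB secretin, 1.71 ± 0.46 in dnTGFB, 2.06 ± 0.02 in WT secretin and 2.04 ± 0.05 in WT (SD, n = 3 each). The low dnTGFB value of 2.32 is from library 3, where the sums held 125 and 54 counts.

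In the replication sum, Gins2 shares 67.3% of its exonic bases with the antisense gene Gse1. Cenpa alone made up 35.6% to 70.2% of the mitosis sum. Without Cenpa and Cenpf, a choice made after the data were seen, dnTGFB secretin exceeded WT by 0.19 on the log2 scale, against 0.41 with them. The ratio without these genes was 14.3, 14.0 and 13.4 in dnTGFB secretin males. In dnTGFB males it was 8.93, 17.5 and 6.94, so that these groups overlapped. The replication sum in CPM of library totals was 233, 231 and 228 in dnTGFB secretin, 88.0, 95.7 and 87.5 in dnTGFB, 209, 222 and 208 in WT secretin, and 160.2, 305 and 312 in WT, and these totals include the mitochondrial genes.

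**Figure D5:**
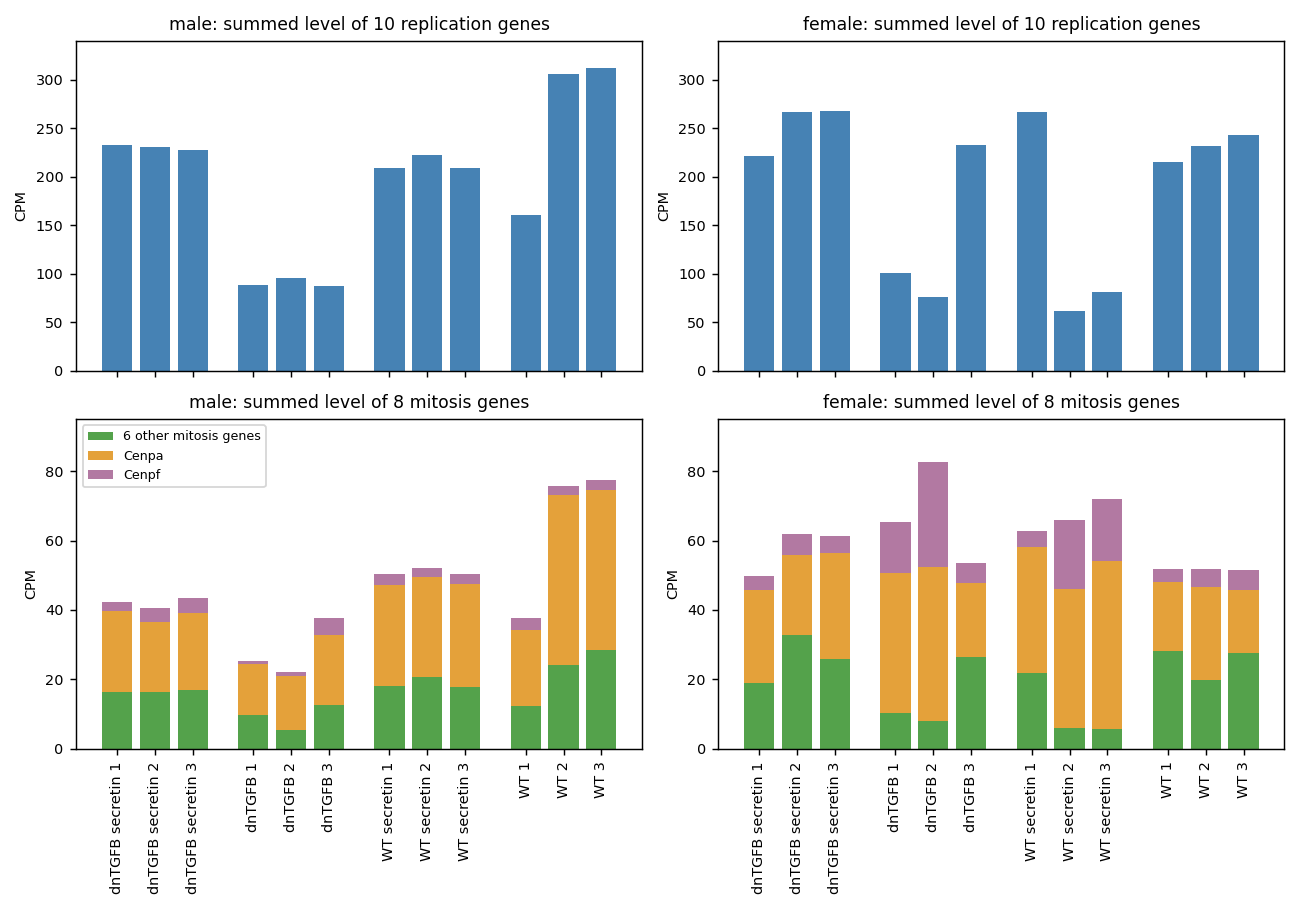
Summed CPM of library totals (vertical axes, from 0) of the 10 replication genes (upper panels) and the 8 mitosis genes (lower panels, split into Cenpa, Cenpf and the 6 others) in each library. In 4 female libraries the replication sum is 61.6 to 100.6 CPM while Cenpa and Cenpf make up most of the mitosis sum.

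The plot of summed levels separates numerator and denominator of the ratio: in the 4 female libraries the replication bar is short, the mitosis bar is tall, and most of its height is Cenpa and Cenpf.

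In female libraries edgeR called 0 of the 43 genes in each comparison, where 0% of all 19882 genes tested were called. At an unadjusted p under 0.05 there were 6 genes for dnTGFB over WT, 20 for WT secretin over WT, 6 for dnTGFB secretin over dnTGFB and 0 for dnTGFB secretin over WT. Of all 19882 genes, 3859, 5263, 3626 and 100 were under that p in the same order of comparisons. DESeq2 called 12 of the 43 genes in WT secretin over WT, all lower. There it called 13.2% of all genes with an adjusted p, counting both directions. In the other comparisons it called 0 of the 43, against 4.49%, 2.24% and 0% of all genes in that order. The median log2 fold changes of the 43 genes were -0.59, -0.94, 0.53 and -0.04 in that order of comparisons. In 12 genes every dnTGFB library was below every WT library (11% of all genes), and in 18 genes every WT secretin library was below every WT library (10.5% of all genes). Without the 4 libraries rich in heart transcripts the medians were -0.16, -0.42, 0.02 and -0.03. That leaves 1 library in each of dnTGFB and WT secretin, assumed to vary like the other groups. The same 4 libraries also held the most Ddx3y and the most counts of the female libraries, and the part of each was not tested.

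The 2 proliferation markers were low in these 4 libraries. Mki67 had 13.5, 31.1 and 24.03 CPM in dnTGFB secretin, 11.5, 9.48 and 24.3 CPM in dnTGFB, 18.6, 6.62 and 4.02 CPM in WT secretin and 17.2, 13.1 and 22.0 CPM in WT females. Top2a had 18.7, 20.4 and 14.3 CPM in dnTGFB secretin, 5.60, 5.63 and 18.4 CPM in dnTGFB, 10.99, 3.16 and 3.11 CPM in WT secretin and 19.1, 17.3 and 19.5 CPM in WT females. Both were lowest in dnTGFB libraries 1 and 2 and WT secretin libraries 2 and 3, while dnTGFB library 3 was above the WT libraries for Mki67 and among them for Top2a. Mcm6, Mcm2 and Rrm2 were low in the same 4 libraries, but Cdc45, at 5.06, 2.98 and 2.11 CPM in dnTGFB secretin, 4.31, 4.94 and 3.35 CPM in dnTGFB, 2.18, 4.05 and 4.90 CPM in WT secretin and 4.02, 4.15 and 2.58 CPM in WT females, was not. Mcm6 had 37.7, 37.2 and 33.0 CPM in dnTGFB secretin, 17.8, 15.4 and 36.7 CPM in dnTGFB, 33.3, 14.4 and 15.0 CPM in WT secretin and 33.9, 36.9 and 40.2 CPM in WT females. Mcm2 had 21.1, 21.1 and 19.9 CPM in dnTGFB secretin, 13.1, 12.9 and 19.7 CPM in dnTGFB, 20.4, 11.1 and 11.8 CPM in WT secretin and 20.8, 21.7 and 19.8 CPM in WT females. Rrm2 had 6.02, 9.53 and 7.26 CPM in dnTGFB secretin, 4.62, 4.44 and 8.64 CPM in dnTGFB, 6.69, 3.59 and 3.47 CPM in WT secretin and 7.51, 6.39 and 8.76 CPM in WT females. For Mcm6, Mcm2 and Rrm2 the 4 heart-rich libraries were below every other female library. Pcna had 76.9, 118 and 105 CPM in dnTGFB secretin, 74.7, 64.6 and 113 CPM in dnTGFB, 93.4, 60.6 and 58.2 CPM in WT secretin and 96.4, 72.5 and 109.7 CPM in WT females. Tyms, thymidylate synthase, had 15.3, 9.45 and 7.47 CPM in dnTGFB secretin, 4.08, 3.46 and 6.67 CPM in dnTGFB, 6.37, 2.93 and 4.11 CPM in WT secretin and 8.76, 13.6 and 8.48 CPM in WT females. For Pcna the groups overlapped, while Tyms was lower in every dnTGFB library than in every WT library (log2 fold change -1.11 ± 0.42 (SE), adjusted p = 0.242).

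The G1/S genes did not all move alike. Ccnd1 had 213, 115 and 99.9 CPM in dnTGFB secretin, 64.4, 63.5 and 168 CPM in dnTGFB, 102, 69.6 and 43.8 CPM in WT secretin and 191, 210.1 and 164 CPM in WT females. E2f1 had 11.2, 9.30 and 8.06 CPM in dnTGFB secretin, 4.54, 3.57 and 10.7 CPM in dnTGFB, 8.65, 2.24 and 1.79 CPM in WT secretin and 11.7, 12.9 and 11.3 CPM in WT females. Ccne1 had 2.88, 3.28 and 2.21 CPM in dnTGFB secretin, 1.91, 2.11 and 3.25 CPM in dnTGFB, 1.70, 1.49 and 2.13 CPM in WT secretin and 1.52, 0.959 and 2.49 CPM in WT females. Ccnd1 and E2f1 were lower in every WT secretin library than in every WT library, and Ccne1 overlapped in all comparisons. For dnTGFB secretin over WT, Ccne1 had the lowest p of the 43 (log2 fold change 0.74 ± 0.44 (SE), adjusted p = 1), ahead of the Aurora kinase gene Aurka (-0.59 ± 0.47) and Chaf1a (-0.38 ± 0.35). Aurka had 1.67, 5.22 and 2.86 CPM and Chaf1a 5.81, 3.68 and 4.11 CPM in dnTGFB secretin, against 4.38, 3.99 and 6.36 CPM and 5.63, 7.67 and 4.43 CPM in WT females, with overlap.

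For mitosis genes, WT secretin over WT held the lowest adjusted p values, none of which passed. Birc5, survivin of the chromosomal passenger complex, had 2.97, 1.59 and 1.27 CPM in WT secretin, against 5.99, 6.23 and 6.73 CPM in WT females (log2 fold change -1.71 ± 0.42 (SE), adjusted p = 0.14). Ccnb1 had 1.17, 0.589 and 0.454 CPM in WT secretin, against 2.23, 5.27 and 3.41 CPM in WT females (log2 fold change -2.31 ± 0.60 (SE), adjusted p = 0.14). Ccnb2, the other B cyclin, had 2.60, 1.00 and 0.658 CPM in WT secretin, against 6.25, 8.31 and 5.62 CPM in WT females (log2 fold change -2.26 ± 0.63 (SE), adjusted p = 0.14). All 3 were lower in every WT secretin library, library 1 included, which held 898 CPM of heart transcripts. With that library alone set against the 3 WT libraries, in the fit without the 4 heart-rich libraries, the log2 fold changes were -1.11 ± 0.49, -1.65 ± 0.71 and -1.39 ± 0.54. Conversely, without WT secretin library 1 the fit called 26 of the 43 genes, 24 lower and 2 higher, where 25.7% of all genes were called. That library differed from female dnTGFB secretin library 3 by a chi-square of 1.45 per gene.

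Mitosis genes differed among themselves in females. Kif20a had 1.76, 3.08 and 2.08 CPM in dnTGFB secretin, 2.58, 2.71 and 2.82 CPM in dnTGFB, 1.38, 2.59 and 2.02 CPM in WT secretin and 2.68, 1.92 and 1.84 CPM in WT females, and its groups overlapped, as did those of Nusap1, a spindle protein, for dnTGFB over WT (-0.07 ± 0.41 on the log2 scale). Cdk1 had 11.6, 14.4 and 10.4 CPM in dnTGFB secretin, 2.86, 2.37 and 7.19 CPM in dnTGFB, 6.69, 1.34 and 1.41 CPM in WT secretin and 9.47, 12.6 and 13.6 CPM in WT females. Plk1 had 6.85, 4.85 and 3.15 CPM in dnTGFB secretin, 1.83, 1.70 and 4.15 CPM in dnTGFB, 3.29, 1.06 and 1.27 CPM in WT secretin and 5.72, 7.83 and 5.72 CPM in WT females. Both genes were lower in every library of dnTGFB and of WT secretin than in any WT library. Cdc20 had 5.27, 5.42 and 4.14 CPM in dnTGFB secretin, 3.01, 2.88 and 6.60 CPM in dnTGFB, 4.41, 1.99 and 1.84 CPM in WT secretin and 6.08, 5.43 and 3.69 CPM in WT females. Foxm1 had 5.06, 4.63 and 4.24 CPM in dnTGFB secretin, 1.80, 1.33 and 3.01 CPM in dnTGFB, 3.29, 1.00 and 0.976 CPM in WT secretin and 3.75, 4.95 and 3.96 CPM in WT females. Foxm1 was lower in every library of dnTGFB and of WT secretin than in any WT library, and Cdc20 overlapped. Ccnb1 had 3.59, 3.36 and 2.41 CPM in dnTGFB secretin and 0.996, 0.814 and 2.59 CPM in dnTGFB females, and Birc5 had 4.97, 8.16 and 5.20 CPM in dnTGFB secretin and 2.03, 2.28 and 3.87 CPM in dnTGFB females. Birc5 was higher in every dnTGFB secretin library than in every dnTGFB library, as was Tyms.

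Cenpf and Cenpa ran the other way. Cenpf had 4.26, 4.50 and 3.56 CPM in dnTGFB secretin, 17.4, 41.8 and 4.60 CPM in dnTGFB, 3.34, 30.1 and 23.7 CPM in WT secretin and 3.57, 5.27 and 5.07 CPM in WT females. Cenpa had 28.4, 18.0 and 21.8 CPM in dnTGFB secretin, 47.5, 61.4 and 17.9 CPM in dnTGFB, 26.1, 61.6 and 63.4 CPM in WT secretin and 18.1, 27.8 and 16.7 CPM in WT females. Each was highest in exactly the 4 heart-rich libraries, at several times its level in the others for Cenpf. The replication to mitosis ratio was 1.54, 0.922 and 4.36 in dnTGFB females and 4.25, 0.936 and 1.13 in WT secretin females, against 4.15, 4.49 and 4.72 in WT females, and it was 4.46, 4.32 and 4.36 in dnTGFB secretin females. Without Cenpa and Cenpf the log2 difference between dnTGFB and WT females was 0.01, against -1.27 with them.

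Other genes of the cell cycle, from lists of 46 replication genes, 50 mitosis genes and 33 control genes beyond the 43, were counted in the same fits. For male dnTGFB over WT, 5, 4 and 5 of them fell and 0 rose. Lig1, the DNA ligase that joins Okazaki fragments, averaged 13.9 ± 3.93 CPM in dnTGFB and 30.0 ± 8.14 CPM in WT males (log2 fold change -1.07 ± 0.23, adjusted p = 0.0119). Rfc3, of the clamp loader, averaged 8.67 ± 1.42 CPM in dnTGFB and 18.2 ± 1.45 CPM in WT males (-1.03 ± 0.20, adjusted p = 0.00723). Among the control genes, the CDK inhibitors Cdkn1c (-1.07 ± 0.18) and Cdkn1b (-0.69 ± 0.13) fell, as did the cyclin D kinase Cdk4 (-0.67 ± 0.18) and the retinoblastoma gene Rb1 (-0.64 ± 0.17). The share of the list that fell was 10.9%, 8% and 15.2%, beside the 8.46% of all genes given above.

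For male WT secretin over WT, 4 replication, 2 mitosis and 1 control gene fell (8.7%, 4% and 3.03% of the lists) and 0 rose, beside 2.67% of all genes that fell. The largest fall was in Cdkn1a, which encodes the CDK inhibitor p21, at 78 ± 1.67 CPM in WT secretin and 287 ± 15.3 CPM in WT males (-1.88 ± 0.44, adjusted p = 0.0309). Pttg1, securin, averaged 28.5 ± 0.81 CPM in WT secretin and 45.2 ± 4.75 CPM in WT males (-0.67 ± 0.12, adjusted p = 0.00805). For male dnTGFB secretin over dnTGFB, 3, 1 and 3 of these genes rose (6.52%, 2% and 9.09%) and 1, 0 and 1 fell, beside 10.1% of all genes that rose and 12.4% that fell. Ccnd2, a second D cyclin, averaged 189 ± 5.21 CPM in dnTGFB secretin and 109 ± 17.7 CPM in dnTGFB males (0.79 ± 0.15, adjusted p = 0.00757). Pttg1 averaged 59.8 ± 1.79 CPM in dnTGFB secretin and 40.6 ± 0.64 CPM in dnTGFB males (0.56 ± 0.12, adjusted p = 0.0111). The secretin effect on Pttg1 differed between the genotypes by 1.22 ± 0.16 (log2 ± SE, adjusted p = 0.00162 by edgeR). For male dnTGFB secretin over WT, 1 mitosis gene (Kif4, a chromosome kinesin, -1.74 ± 0.37) and 1 control gene (Cdkn1c, -0.84 ± 0.18) fell. These are 2% and 3.03% of their lists, near the 2.46% of all genes that fell. In females 0 genes of these lists were called in any comparison by edgeR, with 5 to 7, 7 to 19, 4 to 7 and 0 per list at an unadjusted p under 0.05 for dnTGFB over WT, WT secretin over WT, dnTGFB secretin over dnTGFB and dnTGFB secretin over WT. Among all 19882 genes tested, 3859, 5263, 3626 and 100 were under that p in the same order.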

How the data were processed

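RNA-seq read counts per gene, 1 table per library, were used as deposited by the authors, who selected poly(A) RNA from 500 ng of total RNA per the labels. No source used here gives the aligner, the counter, its use of strand or the annotation. Of 49315 gene IDs, 49056 are in GENCODE M21 (build GRCm38), which gave the symbols. Library totals ran from 1429218 to 104003184 counts.

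Each sex was fitted apart, all 12 libraries together, with edgeR 4.0.16 (R 4.3.3): TMM scaling, filterByExpr by group, robust quasi-likelihood F test, and Benjamini-Hochberg adjustment over all genes that passed the filter (18777 in males and 19882 in females, all 43 members in both). Calls were made at an adjusted p under 0.05 alone, and the SE of a log2 fold change was taken from its F value. CPM and TPM were computed from the deposited counts and, for TPM, from the gene lengths in the files. DESeq2 1.42.0 was an alternative. The fits were also run on simulated counts that held less spread than the data and no outlying libraries. In the data the common dispersion, edgeR's measure of spread within groups, was 0.101 in males and 0.322 in females. That run therefore does not show how the fits behave at the spread of these libraries.

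Alternatives were other scalings, no low-count filter, the 2 compared groups alone, a replicate block, each library left out in turn and libraries that stood apart left out; leaving out mitochondrial genes, 6 female libraries, or Cenpa and Cenpf was added after seeing the data. All 43 genes could be named. Values in every library were to be given for 15 fixed genes and for the 3 genes with the lowest adjusted p in each comparison. The members and all lists were chosen with earlier results of these data known. Genes with a pattern like that of Mki67 are not given, since the libraries fall into clusters of technical replicates.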

Additional observations from a re-analysis of the deposited data

Results flagged for a closer look

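The secretin effect in males differed between the genotypes, by a test of the difference itself, for 4 of the 43 genes, and was higher in dnTGFB than in WT mice for each. That is 9.3% of the 43, near the 8.1% of all genes tested. The difference on the log2 scale was 1.67 for Mcm4, 1.29 for Mcm6, 1.41 for Pcna and 1.85 for Plk1. In WT males all 4 genes were lower in every secretin library than in every untreated library, as were 21.5% of all genes. In dnTGFB males all 4 were higher in every secretin library, as were 22.9% of all genes. For Plk1 the lowest dnTGFB secretin value was 2.890 CPM and the highest dnTGFB value 2.883 CPM. The 4 genes were picked by a test on these same values, so this separation adds no support. The dnTGFB side includes library 3, of 1429218 counts, and without it the differences were 1.43, 1.13, 1.14 and 1.75 in the same order. The same comparison carries an age difference of 8 weeks in WT mice, and the untreated dnTGFB age is not given, so that age and secretin cannot be told apart.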

How the results depend on the processing

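No called gene changed direction under any alternative run. Counts of called genes among the 43 moved by over 1.5 times as follows. For male dnTGFB over WT (12), library totals gave 23, the 2 groups alone 0, leaving out the libraries that stood apart 21, and single omissions 2 to 19. For male WT secretin over WT (1), DESeq2 gave 7, DESeq2 size factors 2, library totals 0, the replicate block 0, the 2 groups alone 16, no libraries that stood apart 22, and single omissions 0 to 1. For male dnTGFB secretin over dnTGFB (3), DESeq2 gave 5, library totals 18, the 2 groups alone 0, no filter 2, the replicate block 2, no libraries that stood apart 10, and single omissions 1 to 7. For male dnTGFB secretin over WT (3), DESeq2 gave 13, library totals 0, no filter 1, the replicate block 2, the 2 groups alone 24, no libraries that stood apart 25, and single omissions 1 to 4. For the male interaction (4), DESeq2 gave 9, library totals 16, no libraries that stood apart 16, and single omissions 2 to 12. For female WT secretin over WT (0), DESeq2 gave 12 and single omissions 0 to 26. Library totals moved the median log2 fold change of all genes to -0.44, 0.19, 0.75 and 0.33 in the 4 male comparisons and to 0.5 in the interaction. Of all 18777 male genes, library totals called 1011 higher and 4212 lower for dnTGFB over WT. They called 6689 and 837 for dnTGFB secretin over dnTGFB, and 3231 and 553 for the interaction. The 2 groups alone called 28.3% of all genes for male WT secretin over WT and 31.8% for dnTGFB secretin over WT. The same kind of fit called 0% for male dnTGFB over WT and 2.9% for dnTGFB secretin over dnTGFB. For the other male runs, save those without the libraries that stood apart, no share of all genes is given here. The replication to mitosis difference (log2) was -0.33 for male dnTGFB over WT (single omissions -0.53 to -0.08) and 0.74 for dnTGFB secretin over dnTGFB (0.49 to 0.95). It was 0.03 for male WT secretin over WT (0.01 to 0.05), but -0.14 as mean logs, -0.01 by role and -0.10 without Cenpa and Cenpf. It was 0.41 for male dnTGFB secretin over WT (0.39 to 0.44), but 0.11 as mean logs and 0.19 without Cenpa and Cenpf. In females it was -1.27 for dnTGFB over WT (-1.90 to -0.78), but 0.01 without Cenpa and Cenpf and -0.03 without the 4 heart-rich libraries. For female WT secretin over WT it was -1.43 (-2.11 to -1.02), but -0.48 as mean logs, -0.52 by role, 0.40 without Cenpa and Cenpf and -0.06 without those libraries. For female dnTGFB secretin over dnTGFB it was 1.25 (0.76 to 1.88), but 0.10 and 0.01 under the same omissions. For female dnTGFB secretin over WT it was -0.02 (-0.07 to 0.02), but 0.07 in TPM, 0.06 as mean logs, 0.08 by role and 0.11 without Cenpa and Cenpf. The causes were not tested. Same-numbered libraries correlated from -0.147 to 0.212 in males and -0.787 to 0.824 in females. Differently numbered libraries of different groups ran from -0.262 to 0.221 and from -0.872 to 0.874, so same-numbered values did not stand out. With libraries that stood apart in both sexes, these values cannot exclude a pairing by number. With the replicate block 8 genes were called for male dnTGFB over WT, 3 for the interaction and 0 in each female comparison. Male dnTGFB library 3 limits precision by its depth.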
